A study of Homo sapiens with 48 samples.

Results

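The genes ANK2, ITPKA, IL20RB and CLIP4 were followed across 16 groups of HK-2 cells, a human kidney cell line derived from the proximal tubule and immortalised for culture. They were chosen from their array values, which were largely lower after 48 h of Ra than in the controls of the same time, so that comparison is given here as a description only, with no test. They are 4 of the 19775 genes that the platform annotation names alone on a probe set. Of the 41091 probe sets with 1 gene symbol in the platform annotation, 8 named a member: 4 for ANK2, 2 for CLIP4 and 1 each for ITPKA and IL20RB. A probe set is the group of array features that reads 1 target. To be tested, a probe set had to exceed a log2 value of 4 in at least 3 arrays, and 5 of the 8 did so, out of 20960 in the whole table. These 5 are 202920_at and 202921_s_at for ANK2, 205874_at for ITPKA, 228575_at for IL20RB and 226425_at for CLIP4.

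The series measured total RNA on 48 arrays, 1 array for each sample and 3 biological replicates for each group, in cells exposed to CsA, Fk, Ra or Nnm, compounds known here only by these label names. The CsA set held cells treated with CsA for 12 h or 48 h, each with its own controls. The Fk and Ra set held cells treated with Fk or with Ra for 12 h or 48 h, with 3 controls at each time that both compounds share. The Nnm set held a low and a high dose for 24 h or 48 h, again with 3 shared controls at each time. Controls received the vehicle, which is not named in the sources used here, and no dose beyond the words low and high is given there. All groups shared the same line and the same medium with EGF, hydrocortisone and insulin, and treatment began near confluence, a day after seeding. HK-2 is a single immortalised line, so the replicates are cultures of 1 origin. The CsA arrays carry a laboratory label that the other arrays lack, so a difference in level between sets and a difference between the sets' origins cannot be told apart.

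ANK2 encodes ankyrin-B, an adaptor that ties membrane proteins to the spectrin skeleton under the cell membrane. ITPKA encodes a kinase that phosphorylates inositol 1,4,5-trisphosphate, the messenger that releases calcium from the endoplasmic reticulum, and its protein also binds actin. IL20RB encodes a receptor chain that pairs with IL20RA for IL-19, IL-20 and IL-24, or with IL22RA1 for IL-20 and IL-24, and signals through JAK and STAT proteins. CLIP4 belongs to the family of proteins with CAP-Gly domains, a fold that binds the ends of microtubules. In the RefSeq annotation of GRCh38.p14, ANK2 lies on chromosome 4 from 112705622 to 113383736, ITPKA on chromosome 15 from 41493874 to 41503551, IL20RB on chromosome 3 from 136957983 to 137011085 and CLIP4 on chromosome 2 from 29097726 to 29183808.

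The RefSeq promoter table, built on GRCh38.p14, holds 15 promoters of these genes: 10 of ANK2, 3 of CLIP4 and 1 each of IL20RB and ITPKA. Each covers 300 bases, of which 50 follow the transcription start. They were searched on both strands for 5 short patterns. TGATGNAA spells the C/EBP-ATF response element. The pattern of the cAMP response element is TGACGTCA. The CCAAT box, the GC box in the form GGGCGG, and the TATA box in the form TATAAA were the others. TGATGNAA stood in 2 of the 15, the IL20RB promoter and 1 ANK2 promoter, and 3.62% of all 35116 promoters hold it. In both the letters were TGATGCAA on the strand of the gene, beginning 76 bases before the IL20RB start and 122 bases before the ANK2 start. CCAAT stood in 5 of the 15, 4 of ANK2 and the 1 of IL20RB, and in 34.6% of all promoters. GGGCGG stood in 3, of ANK2, ITPKA and IL20RB, and in 45.0% of all promoters. The cAMP response element and TATAAA stood in 0 of the 15, against 1.85% and 11.5% of all promoters, and none of the 5 patterns was found in the 3 CLIP4 promoters. In 1 ANK2 promoter CCAAT and its reverse complement overlap, and in the 3 promoters below no matches do. The promoters of IL20RB and ANK2 are shown because they hold TGATGNAA, the rarest pattern found in these genes, and the ITPKA promoter because it is the 1 listed for that gene. Capitals mark every match, and in ITPKA they mark GGGCGG on either strand. All 3 are on the plus strand: the ANK2 one at chr4:112817855-112818154, the IL20RB one at chr3:136957733-136958032 and the ITPKA one at chr15:41493624-41493923.
ANK2: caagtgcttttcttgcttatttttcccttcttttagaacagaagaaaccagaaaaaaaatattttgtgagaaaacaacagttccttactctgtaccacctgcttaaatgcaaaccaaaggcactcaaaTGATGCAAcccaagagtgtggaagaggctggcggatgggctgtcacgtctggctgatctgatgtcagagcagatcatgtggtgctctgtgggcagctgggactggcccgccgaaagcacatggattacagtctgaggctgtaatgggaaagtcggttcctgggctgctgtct
IL20RB: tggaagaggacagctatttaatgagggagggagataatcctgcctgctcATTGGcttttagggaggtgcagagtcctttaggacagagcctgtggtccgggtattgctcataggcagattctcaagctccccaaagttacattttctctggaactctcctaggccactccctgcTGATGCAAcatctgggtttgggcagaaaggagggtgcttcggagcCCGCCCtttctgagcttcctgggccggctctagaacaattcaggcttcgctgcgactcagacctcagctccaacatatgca
ITPKA: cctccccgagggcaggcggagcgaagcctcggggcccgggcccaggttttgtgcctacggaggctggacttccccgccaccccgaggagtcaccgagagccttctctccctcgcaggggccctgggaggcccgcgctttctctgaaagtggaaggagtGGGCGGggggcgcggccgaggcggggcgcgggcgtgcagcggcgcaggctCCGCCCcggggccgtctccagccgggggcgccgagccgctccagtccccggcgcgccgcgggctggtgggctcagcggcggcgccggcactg
A match is a run of letters and not a measured binding site.

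Values are log2 expression, so 1 unit is a factor of 2. Differences are fitted log2 differences with their SE, treated minus control or 48 h minus the earlier time, and a probe set is called changed at a Benjamini-Hochberg adjusted p under 0.05 in limma. The number of arrays, 3 in each group, limits the precision, and arrays give no counts. Over the 16 group means, 5 of 16 proximal tubule markers passed the filter on low values (GGT1, PAX8, KRT8, KRT18 and CDH2), whereas the transporters and brush border genes AQP1, SLC34A1, SLC5A2, LRP2, CUBN, ANPEP, MME, SLC22A6 and SLC22A8 did not. Of the markers of other cells, 3 of 9 fibroblast, 1 of 7 endothelial, 0 of 8 leukocyte and 1 of 8 podocyte or distal nephron genes passed. The proximal tubule markers that passed averaged 9.72 after 48 h of Ra and 9.68 in its controls, and the fibroblast markers 8.66 after Ra and 8.70 in the controls. The upper quartile of an array's values ran from 6.20 in Ra 48 h replicate 2 to 7.24.

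After 48 h of Ra, all 5 probe sets were lower than in the controls, with differences from -3.99 to -1.05 log2 units. ANK2 202920_at read 6.65, 3.76 and 5.12 in the cells given Ra for 48 h, against 9.30, 9.73 and 8.46 in their controls. The difference was -3.99 ± 0.49 (SE). Every Ra array lay below every control array, and the Ra arrays spread more widely than the controls, with a SD of 1.45 in Ra cells against 0.65 in control cells. The second ANK2 probe set, 202921_s_at, read 4.61, 4.65 and 4.62 after Ra, against 6.01, 6.40 and 4.62 in the controls. Here the third control stood at the level of the Ra arrays, so the groups overlapped, and the difference was -1.05 ± 0.47. The Ra arrays of this probe set had a SD of 0.02, and its lowest group mean was 4.49, so its low end may lie above 4.

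ITPKA read 8.21, 4.60 and 5.82 in the cells given Ra for 48 h, against 10.58, 9.96 and 8.91 in their controls, a difference of -3.61 ± 0.89. The highest Ra array stayed under the lowest control. IL20RB read 3.75, 3.01 and 3.53 after Ra, against 8.03, 7.08 and 4.86 in the controls, a difference of -3.22 ± 0.59. All 3 Ra arrays were under a log2 value of 4 and the third control was far below the other two. CLIP4 226425_at read 2.77, 2.75 and 2.76 after Ra, against 6.63, 5.68 and 5.13 in the controls, a difference of -3.06 ± 0.78. The Ra arrays sat together at the low end of the scale, where the size of a difference is uncertain, and all controls were well above them. The bulk arrays cannot separate fewer cells with a transcript from less transcript in each cell.

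Across all 20960 probe sets, 13.8% were called lower after 48 h of Ra, 16.3% had groups that did not overlap with Ra lower, and the median difference was -0.17. The members' groups were apart in 4 of 5 probe sets, a count set in part by choosing the genes from these arrays. Ra 48 h replicate 2 stood away from the other Ra arrays as a whole: 7042 probe sets differed by over 1 log2 unit from the control of the same number, against 2485 for replicate 1 and 1940 for replicate 3. Without that array limma called 2.62% of all probe sets lower, and the difference was -3.28 for ANK2 202920_at, -1.06 for 202921_s_at, -2.80 for ITPKA, -3.02 for IL20RB and -3.05 for CLIP4. The plot of all array values shows these groups beside the other 14.

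**Figure D1:**
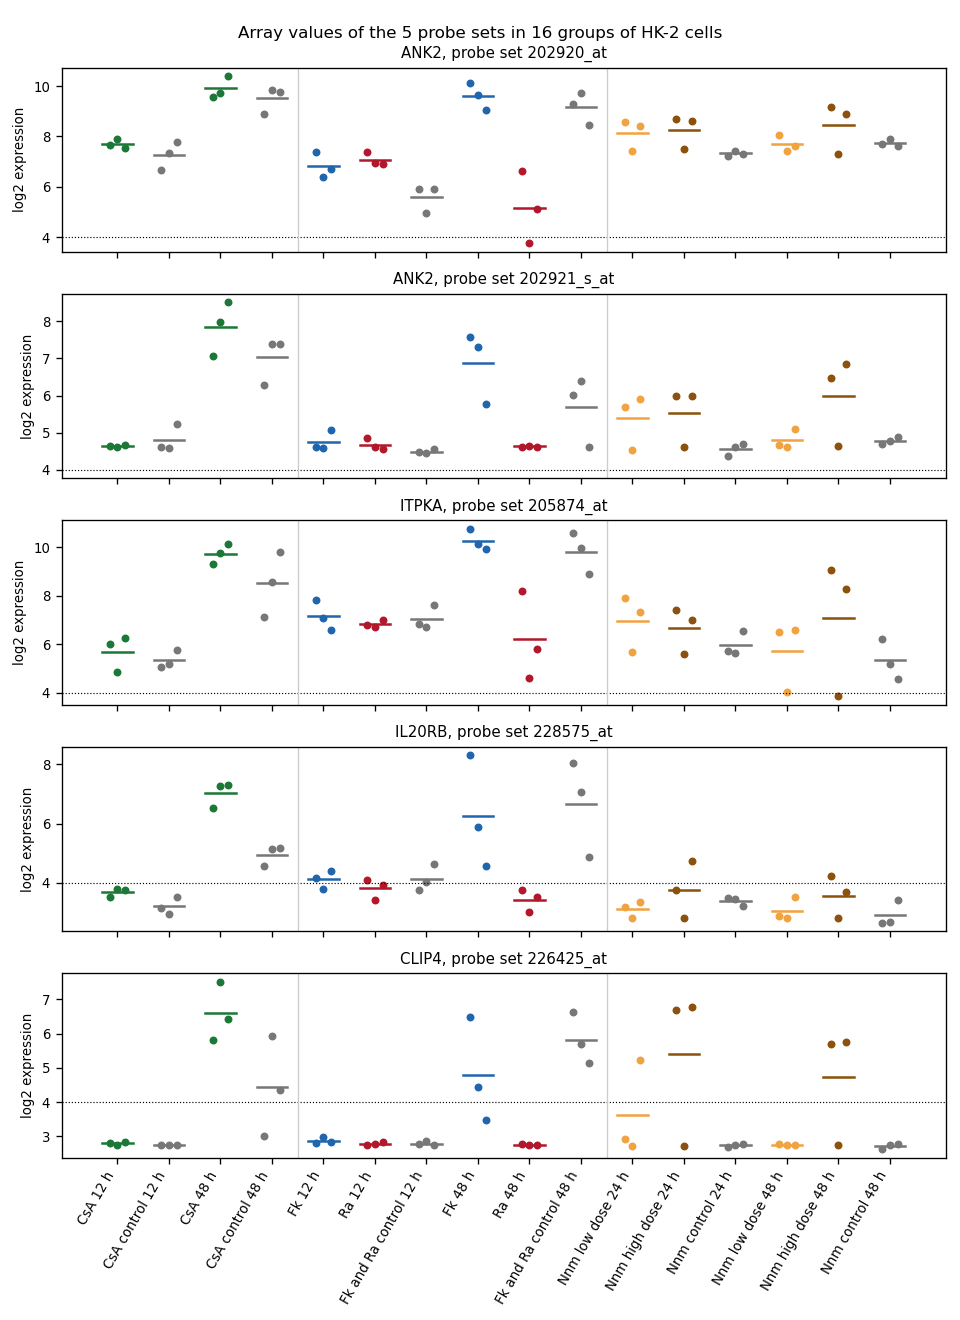
Log2 expression of the 5 tested probe sets (vertical axes, log2 units) in each of the 16 groups (horizontal axis), with 1 point for each of 3 arrays, a short line at the group mean, a dotted line at 4 and grey lines between the sets. The Ra 48 h arrays of CLIP4 lie between 2.75 and 2.77, and those of its controls between 5.13 and 6.63.

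The 3 probe sets that failed the filter held no clear reading. ANK2 216195_at ran from 2.28 to 3.53 and 232606_at from 2.24 to 2.37 over the 48 arrays. The second CLIP4 probe set, 219944_at, ran from 2.48 to 3.83. It read 2.63, 3.17 and 2.63 after 48 h of Ra, against 3.83, 3.03 and 2.65 in the controls, and these groups overlapped.

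The 12 h arrays of the set show where the 48 h levels lie. In the controls, ANK2 202920_at averaged 9.16 ± 0.65 at 48 h and 5.61 ± 0.56 at 12 h (SD, n = 3 each), while after 48 h of Ra it averaged 5.18 ± 1.45. ITPKA averaged 6.21 ± 1.84 after 48 h of Ra, against 7.05 ± 0.48 in 12 h controls. IL20RB averaged 3.43 ± 0.38 after 48 h of Ra, against 4.14 ± 0.44 in 12 h controls, and CLIP4 2.76 ± 0.01 against 2.79 ± 0.06. The Ra 48 h arrays overlapped the 12 h controls in 202920_at, ITPKA and CLIP4, and the differences of the 5 probe sets ran from -0.84 for ITPKA to 0.14 for 202921_s_at. IL20RB was lower after 48 h of Ra than in any 12 h control, as were 18.9% of all probe sets, and 202921_s_at slightly higher, as were 5.49%. Set against the cells given Ra for 12 h, those given Ra for 48 h were apart in 202920_at alone, with a difference of -1.91 in the means, and overlapped in the other 4, while 15.4% of all probe sets were apart and lower. All values in this paragraph describe arrays that include those used to choose the genes.

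**Figure D2:**
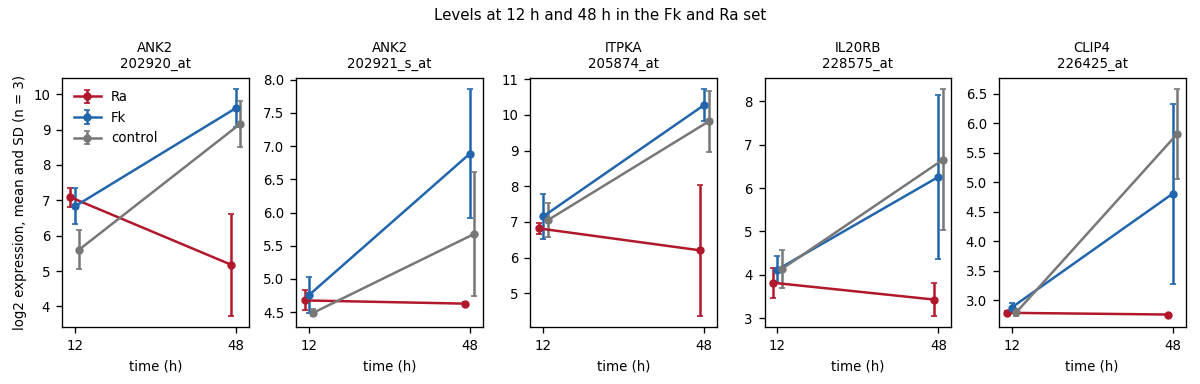
Mean log2 expression (vertical axes) at 12 h and 48 h (horizontal axes) in cells given Ra, Fk or vehicle only, with bars of 1 SD over n = 3 arrays. Controls and Fk cells stand higher at 48 h, and in Ra cells ANK2 202920_at averages 5.18 at 48 h and 7.09 at 12 h.

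At 12 h of Ra, 0 of the 5 probe sets were called by limma, against 0.0668% of all probe sets (14 of 20960). Among all 20960, 1410 had an unadjusted p under 0.05, and 1 of the 5 did. That one was ANK2 202920_at, which read 7.39, 6.95 and 6.92 in Ra cells, against 5.92, 4.96 and 5.94 in controls. Each Ra array was above each control, by 1.48 ± 0.49, with an adjusted p of 0.400. ANK2 202921_s_at was apart too, by 0.18 ± 0.47, so 2 of 5 groups did not overlap with Ra higher, and 15.3% of all probe sets showed this. ITPKA, IL20RB and CLIP4 overlapped their controls, with differences of -0.23, -0.32 and -0.01. The change of the Ra difference between 12 h and 48 h ran from -1.24 ± 0.66 in 202921_s_at to -5.47 ± 0.69 in 202920_at, given with no test because it holds the comparison used for the choice.

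Fk was measured against the same controls as Ra. At 12 h limma called 0 of 5 member probe sets, and 0% of all probe sets, with 1 of 5 and 1406 of 20960 at an unadjusted p under 0.05. ANK2 202920_at read 7.38, 6.38 and 6.73 in Fk cells, against 5.92, 4.96 and 5.94 in controls. The groups were apart, and the difference of 1.22 ± 0.49 had an adjusted p of 0.657. ANK2 202921_s_at was apart too, at 0.27 ± 0.47, so 2 of 5 did not overlap with Fk higher, against 8.64% of all probe sets. ITPKA, IL20RB and CLIP4 overlapped their controls, with differences from -0.01 to 0.11. Fk 12 h replicate 3 stood away from its group, with 3602 probe sets over 1 log2 unit from the control of its number, and without it the difference was 1.27.

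At 48 h, Fk cells overlapped their controls in all 5 probe sets. ANK2 202920_at read 10.12, 9.63 and 9.05 after 48 h of Fk, against 9.30, 9.73 and 8.46 in controls. ITPKA read 10.77, 10.16 and 9.91 after Fk, against 10.58, 9.96 and 8.91 in controls. IL20RB spread over 8.30, 5.89 and 4.58 after Fk and over 8.03, 7.08 and 4.86 in controls, the third array being lowest on each side. CLIP4 showed the same order, with 6.48, 4.44 and 3.49 after Fk, against 6.63, 5.68 and 5.13 in controls. The CLIP4 difference was -1.01 ± 0.78. limma called 0 of 5 at 48 h, and 0% of all probe sets, with 1 of 5 and 645 of 20960 at an unadjusted p under 0.05. That probe set was ANK2 202921_s_at, with a difference of 1.21 ± 0.47. Since the 48 h controls served in choosing the genes, this test is not independent of the choice. Directly set against Ra at 48 h, Fk was higher in all 5 by 2.05 to 4.43 with no overlapping arrays, as a description, and 16.2% of all probe sets were apart in this direction. At 12 h limma called 0 of 5 between Fk and Ra, and 0.00477% of all probe sets, with 0 of 5 and 1656 of 20960 at an unadjusted p under 0.05. The differences at 12 h ran from -0.26 to 0.34.

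The change with time in the CsA controls rested on arrays outside the comparison that chose the genes. The genes were still chosen with earlier results of these data known, so independence of the choice is not assured. Between 12 h and 48 h, 4 of 5 probe sets rose in these cells, against 5.13% of all probe sets called higher. ANK2 202920_at read 8.91, 9.84 and 9.77 at 48 h, against 6.68, 7.35 and 7.79 at 12 h, a rise of 2.23 ± 0.49 with an adjusted p of 0.00328. The second ANK2 probe set read 6.29, 7.39 and 7.39 at 48 h, against 4.61, 4.60 and 5.22 at 12 h, a rise of 2.22 ± 0.47 with an adjusted p of 0.00235. In both, every 48 h control lay above every 12 h control. ITPKA read 7.12, 8.59 and 9.83 at 48 h, against 5.05, 5.20 and 5.76 at 12 h, a rise of 3.18 ± 0.89 with an adjusted p of 0.0183. The 48 h values were spread over a wide range and none reached down to a 12 h value. IL20RB read 4.56, 5.13 and 5.17 at 48 h, against 3.15, 2.95 and 3.52 at 12 h, a rise of 1.75 ± 0.59 with an adjusted p of 0.0469. CLIP4 read 3.01, 5.93 and 4.36 at 48 h, against 2.74 in each of the 3 arrays at 12 h. Its difference of 1.69 ± 0.78 had an adjusted p of 0.161 and was not called, though the groups were apart. Groups were thus apart in 5 of 5, against 14.5% of all probe sets with 48 h higher. The ITPKA call was lost without 12 h control replicate 1 or without 48 h control replicate 2 or 3, and the IL20RB call without any 1 of the 6 control arrays, with adjusted p up to 0.148.

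In the Fk and Ra controls 4 of 5 also rose between 12 h and 48 h, against 8.6% of all probe sets. These 48 h controls are those that chose the genes. Neither the count nor the p-values of this comparison, with all arrays or with 1 left out, are therefore independent of the choice. The rise was 3.55 ± 0.49 for ANK2 202920_at (limma adjusted p = 1.74e-05), 2.77 ± 0.89 for ITPKA (0.0283), 2.52 ± 0.59 for IL20RB (0.00300) and 3.02 ± 0.78 for CLIP4 (0.00663). ANK2 202921_s_at differed by 1.19 ± 0.47, with an adjusted p of 0.0748. No 48 h control overlapped a 12 h control in any of the 5, and 22.4% of all probe sets were apart in this direction. Without 48 h control replicate 1, ANK2 202920_at was the 1 probe set of the 5 still called, with limma adjusted p of 0.142 for ITPKA, 0.0578 for IL20RB and 0.0571 for CLIP4. The ITPKA call was also lost without 12 h control replicate 1 (0.0793), 12 h control replicate 2 (0.0910) or 48 h control replicate 2 (0.0837). Between the CsA set and the Fk and Ra set the control change with time differed by -1.33 to 1.03. limma called 0 of 5 in that comparison, and 0.00477% of all probe sets, with 0 of 5 and 706 of 20960 at an unadjusted p under 0.05, so the count is no result about the members.

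The Nnm controls covered 24 h and 48 h, without a 12 h group, so the sets are given side by side. Differences between 48 h and 24 h were 0.42 ± 0.49 for ANK2 202920_at, 0.23 ± 0.47 for 202921_s_at, -0.62 ± 0.89 for ITPKA, -0.47 ± 0.59 for IL20RB and -0.01 ± 0.78 for CLIP4. None was called, and limma called 0% of all probe sets there, with 0 of 5 and 1163 of 20960 at an unadjusted p under 0.05. CLIP4 read 2.63, 2.76 and 2.79 at 48 h, against 2.68, 2.76 and 2.79 at 24 h, at the low end on all arrays. Whether the Nnm controls differ in time course from the other sets was not tested.

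**Figure D3:**
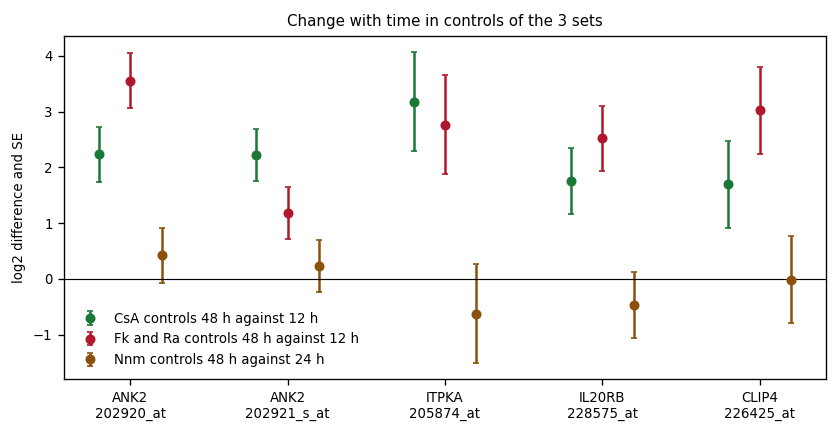
Fitted log2 difference between 48 h and the earlier time (vertical axis, bars of 1 SE) in the controls of the 3 sets, for each probe set. The CsA and the Fk and Ra controls lie between 1.19 and 3.55, and the Nnm controls, which start at 24 h, between -0.62 and 0.42.

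After 48 h of CsA the group mean was above that of the controls in all 5 probe sets, and none was called, against 0.83% of all probe sets. The groups were apart in 1 of 5, IL20RB, and 8.3% of all probe sets were apart with CsA higher. IL20RB read 6.52, 7.27 and 7.31 in CsA cells, against 4.56, 5.13 and 5.17 in controls. The groups did not overlap, and the difference of 2.08 ± 0.59 had an adjusted p of 0.0836. With the replicate number as a block, which the CsA arrays warrant, the adjusted p was 0.0234, and without CsA 48 h replicate 1 it was 0.0432. CLIP4 read 5.81, 7.52 and 6.44 in CsA cells, against 3.01, 5.93 and 4.36 in controls. Paired by number every CsA array was higher, by 2.80, 1.59 and 2.08, but the ranges overlapped and the difference of 2.15 ± 0.78 had an adjusted p of 0.217. These 2 were the member probe sets with an unadjusted p under 0.05, beside 2353 of all 20960. ITPKA differed by 1.23 ± 0.89, and ANK2 by 0.40 ± 0.49 and 0.82 ± 0.47.

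At 12 h of CsA, limma called 0 of 5, and 0% of all probe sets, with 0 of 5 and 100 of 20960 at an unadjusted p under 0.05. IL20RB read 3.53, 3.81 and 3.75 after CsA, against 3.15, 2.95 and 3.52 in controls, a difference of 0.49 ± 0.59. The 3 CsA arrays were narrowly above the controls and all 6 were under a log2 value of 4. CLIP4 averaged 2.80 ± 0.04 after CsA and 2.74 ± 0.00 in controls, at the low end of the scale, and these groups were narrowly apart too. Groups thus did not overlap in 2 of 5 with CsA higher, against 3.24% of all probe sets. The CsA difference at 48 h exceeded that at 12 h by 1.59 ± 0.83 for IL20RB and 2.10 ± 1.10 for CLIP4, and limma called neither, against 0.0143% of all probe sets.

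With the high dose of Nnm at 24 h, CLIP4 was the 1 of the 5 probe sets called higher, against 9.95% of all probe sets. CLIP4 read 6.68, 2.73 and 6.78 in high-dose cells, against 2.68, 2.76 and 2.79 in controls. Replicates 1 and 3 were far above every control and replicate 2 was at the control level. The difference was 2.66 ± 0.78 with a limma adjusted p of 0.0148, and the adjusted p was 0.147 without high-dose replicate 1 and 0.142 without replicate 3. At the low dose CLIP4 read 2.91, 2.72 and 5.24, high in the third array only, and the high dose exceeded the low by 1.78 ± 0.78 with an adjusted p of 0.708.

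Replicate 2 moved little in the Nnm set as a whole. At the high dose and 24 h its array differed from the control of its number by over 1 log2 unit at 913 probe sets, against 5156 for replicate 1 and 4920 for replicate 3. With replicate 2 left out of every Nnm group, an alternative added after the values were seen, CLIP4 differed by 4.0 at the high dose and 24 h, with an adjusted p of 8.66e-05, and ANK2 202921_s_at by 1.46 with an adjusted p of 0.0194. With all 3 replicates ANK2 202921_s_at had differed by 0.97 ± 0.47, with an adjusted p of 0.137.

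After 48 h of the high dose, the 5 probe sets were higher than their controls by 0.64 to 2.01, and limma called 0 of 5, against 8.06% of all probe sets called higher. ITPKA read 9.06, 3.85 and 8.29 at the high dose, against 6.23, 5.19 and 4.58 in controls. Replicates 1 and 3 were above all controls and replicate 2 below all of them. CLIP4 read 5.69, 2.75 and 5.76 at the high dose, against 2.63, 2.76 and 2.79 in controls, and ANK2 202921_s_at read 6.47, 4.65 and 6.84, against 4.71, 4.77 and 4.88. Again replicate 2 was the array at or under the control level. Differences were 1.73 ± 0.89 for ITPKA, 2.01 ± 0.78 for CLIP4 and 1.20 ± 0.47 for ANK2 202921_s_at, with limma adjusted p of 0.190, 0.0759 and 0.0750. The last 2 had an unadjusted p under 0.05, as did 6199 of all 20960 probe sets. With the replicate block the adjusted p was 0.0256 for CLIP4 and 0.0196 for ANK2 202921_s_at. Without replicate 2 of all Nnm groups, added after the values were seen, limma adjusted p was 0.00231 for CLIP4, 0.00431 for 202921_s_at and 0.00272 for ITPKA. The ITPKA difference was then 3.27. The array left out was the one that had not risen, so these p-values are partly set by that step. The same holds at 24 h, and the values without replicate 2 are no result about the members.

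**Figure D4:**
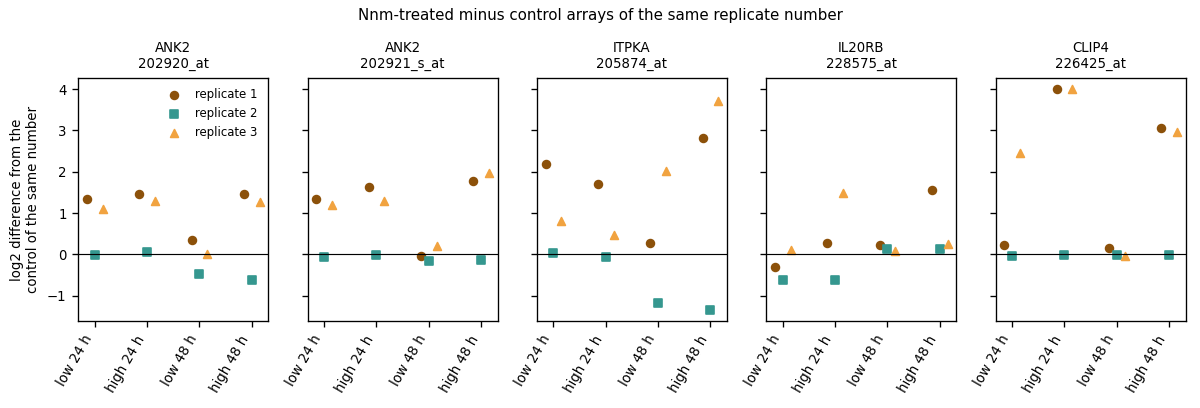
Log2 difference between each Nnm array and the control array of the same replicate number (vertical axis), by dose and time (horizontal axis, in time order with the low before the high dose), for each probe set. At the high dose and 24 h, CLIP4 differs by 4.0 and 3.99 in replicates 1 and 3 and by -0.03 in replicate 2.

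At the low dose, limma called 0 of 5 at 24 h, against 6.8% of all probe sets, and 0 of 5 at 48 h, against 4.62%. An unadjusted p under 0.05 was found for 0 of 5 at either time. Of all 20960 it was found for 4628 at 24 h and 3985 at 48 h. ANK2 202920_at read 8.56, 7.42 and 8.43 at the low dose and 24 h, against 7.23, 7.43 and 7.32 in controls, a difference of 0.81 ± 0.49. Replicates 1 and 3 were above the controls and replicate 2 among them. At 48 h of the low dose the same probe set differed by -0.03 ± 0.49. CLIP4 then averaged 2.75 ± 0.02 at the low dose and 2.73 ± 0.09 in controls.

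**Figure D5:**
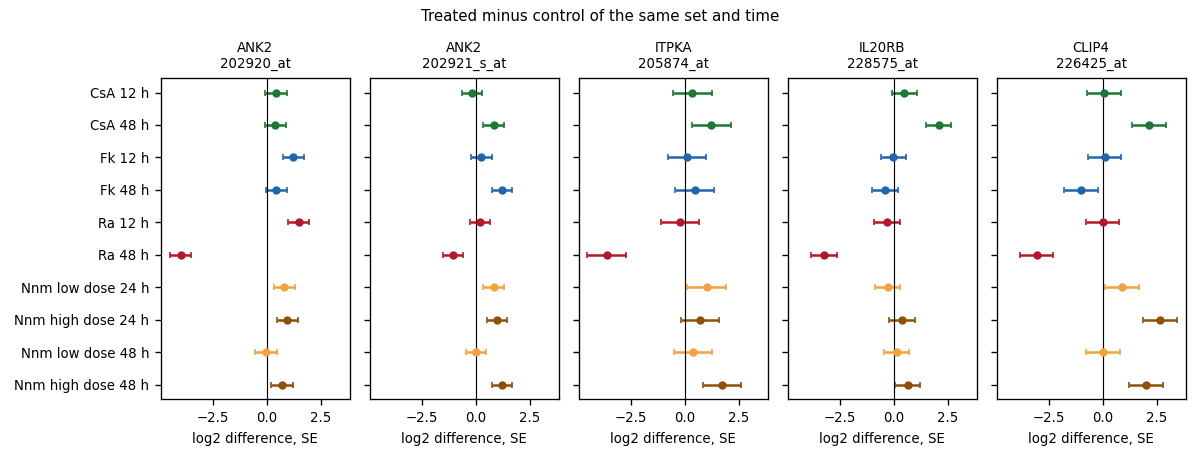
Fitted log2 difference between treated and control cells of the same set and time (horizontal axes, bars of 1 SE) for 10 treatments (rows) and 5 probe sets (panels). Ra at 48 h is the 1 row below 0 in all panels, from -3.99 to -1.05, and CsA 48 h and both high-dose Nnm rows are above 0 in all panels.

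Ordered by group mean, the 48 h groups of CsA, Fk and both their controls held the 4 highest places for ANK2 202920_at, ITPKA and IL20RB. ANK2 202920_at was highest in CsA 48 h at 9.90 ± 0.44 and lowest in Ra 48 h at 5.18 ± 1.45. ITPKA ran from 10.28 ± 0.44 in Fk 48 h to 5.33 ± 0.84 in 48 h Nnm controls, with Ra 48 h in place 11. IL20RB ran from 7.04 ± 0.44 in CsA 48 h to 2.92 ± 0.44 in 48 h Nnm controls, with Ra 48 h again in place 11, and 6 of 16 means were above 4. CLIP4 was above 4 in 6 means too, from 6.59 ± 0.86 in CsA 48 h to 4.43 ± 1.46 in 48 h CsA controls, and from 3.62 ± 1.40 down to 2.73 ± 0.09 in the other 10. ANK2 202921_s_at ran from 7.85 ± 0.73 in CsA 48 h to 4.49 ± 0.05 in 12 h controls of Fk and Ra. Of the 15 neighbouring pairs in each order, 2 had ranges apart for 202920_at and 0 for each of the other 4, so most neighbours did not differ beyond their spread. Places far from each other were apart: the ITPKA arrays of Fk 48 h read 9.91 to 10.77, against 5.05 to 5.76 in 12 h CsA controls.

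Across the 16 group means, each less the mean of its set, Pearson's r between the 10 pairs of member probe sets ran from 0.80 to 0.95, a description over groups that share controls. These 16 means include Ra 48 h and its controls, where the members were chosen for being low together, so a high r is partly set by the choice. Over the 14 other groups r ran from 0.79 to 0.98. Between a member and all other probe sets the median r was 0.08 over 16 groups and 0.03 over 14, and 6.44% and 7.64% of those values were above the lowest r between members. Over the 16 groups the genes nearest to ANK2 202920_at were ASNS (r = 0.976), NIBAN1 (0.974) and DNMT3B (0.968). Nearest to ITPKA were TRIM25 (0.979), HKDC1 (0.975) and SEL1L (0.974). Nearest to IL20RB were SRP19, ALG2 and DNAJB11 (0.969, 0.969 and 0.968), and nearest to CLIP4 were PIP4K2C (0.967), MAFG (0.962) and MOSPD1 (0.950). These names depend on the measure: with Spearman's rho, or with no subtraction of the set means, 0 or 1 of the 3 named genes remained for each member.

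Genes that work beside the members were taken from 4 lists, each gene at its brightest probe set past the filter. After 48 h of Ra, limma called 16.3% of all probe sets in either direction. The shares set beside the lists count every tested probe set, several for some genes, so they are a rough guide only. Among 15 measured ankyrins, spectrins and partners of ankyrin-B, 3 fell and 0 rose. NRCAM, an adhesion protein that binds ankyrins, differed by -1.11 ± 0.25 (adjusted p = 0.00311), DCTN4, a dynactin subunit, by -0.73 ± 0.13 (0.000463), and ITPR2, a receptor for inositol trisphosphate, by -0.58 ± 0.17 (0.0168). The list's median was -0.14, against -0.17 over all probe sets. ANK3, which encodes the related ankyrin-G, read 5.07 ± 1.18 after Ra and 4.48 ± 1.67 in controls.

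Of 26 inositol phosphate kinases, phosphatases and phospholipases C, 3 fell and 1 rose after 48 h of Ra, with a median of -0.16. INPP1, INPP5B and IMPA1, phosphatases of inositol compounds, differed by -0.83 ± 0.28 (limma adjusted p = 0.0392), -0.80 ± 0.18 (0.00247) and -0.56 ± 0.19 (0.0392). INPP5A, which removes the 5-phosphate from inositol trisphosphate, rose by 0.68 ± 0.22 (0.0330). The sister kinases of ITPKA did not pass: ITPKB read 5.28 ± 1.00 after Ra and 5.18 ± 0.07 in controls, and ITPKC 5.04 ± 0.39 after Ra and 5.51 ± 0.31 in controls.

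Among 14 measured genes of the IL-20 and IL-10 families and of JAK and STAT signalling, 1 fell and 0 rose, with a median of 0.00 on the log2 scale. It was SOCS2, an inhibitor of cytokine signalling, at -1.90 ± 0.37 (limma adjusted p = 0.000960). IL22RA1, a partner chain of IL20RB, read 2.95 ± 0.03 after Ra and 2.79 ± 0.17 in controls, near the low end. Of 25 CAP-Gly and microtubule plus-end genes, 4 fell and 0 rose, with a median of -0.20. They were CLIP3, a CAP-Gly protein of the trans-Golgi network, at -1.46 ± 0.49, APC, a tumour suppressor that binds microtubule ends, at -1.09 ± 0.24, TBCE, a tubulin folding factor, at -1.07 ± 0.15 and MAP1B, a microtubule-associated protein, at -0.92 ± 0.24. The relatives CLIP1 and CLIP2 did not pass, with differences of -1.03 ± 0.37 (limma adjusted p = 0.0544) and 0.85 ± 0.51 (0.269). Without Ra 48 h replicate 2, limma called 5.45% of all probe sets, and 1 gene in each of the 4 lists was called lower: DCTN4, INPP5B, SOCS2 and TBCE. INPP5A was still called higher. ANK3, ITPKB, ITPKC, IL22RA1, CLIP1 and CLIP2 were named as closest relatives or partners after their values were seen.

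In the CsA controls between 12 h and 48 h, where limma called 11.4% of all probe sets, the ankyrin list held 3 genes that rose and 1 that fell, the inositol list 1 and 1, the cytokine list 0 and 0, and the CAP-Gly list 1 and 1. NRCAM rose by 1.08 ± 0.25, SPTBN1, a beta spectrin, by 0.71 ± 0.16, INPP5B by 0.79 ± 0.18 and CYLD, a deubiquitinase with CAP-Gly domains, by 1.52 ± 0.41. INPP5A fell by 0.69 and MAPRE1, the plus-end protein EB1, fell by 0.57. In the Fk and Ra controls, where limma called 17% of all probe sets, the counts of genes that rose and fell were 5 and 1, 1 and 2, 1 and 0, and 4 and 1 in the same order of lists. NRCAM rose there by 1.06 ± 0.25, INPP5B by 0.92 ± 0.18, SOCS2 by 1.48 ± 0.37, CLIP3 by 1.60 ± 0.49 and KIF13B, a kinesin with a CAP-Gly domain, by 1.35 ± 0.37. EHD1, an endocytic recycling protein, fell by 1.09 and PLCE1, a phospholipase C, fell by 1.17. The Ra comparison at 48 h uses the same 48 h controls.

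Under the high dose of Nnm, limma called 20.9% of all probe sets at 24 h and 15.5% at 48 h. The cytokine list held 2 genes that rose and 1 that fell at 24 h, and 5 that rose and 1 that fell of 14 at 48 h. IL22RA1 read 4.51 ± 0.52 in high-dose cells at 24 h and 2.84 ± 0.03 in controls, a rise of 1.67 ± 0.38 (adjusted p = 0.00232), and rose by 1.37 ± 0.38 at 48 h. JAK2, a kinase of cytokine receptors, rose by 2.56 ± 0.44 at 24 h and 1.32 ± 0.44 at 48 h. IL20RB itself differed by 0.38 ± 0.59 at 24 h and 0.64 ± 0.59 at 48 h and was not called. The inositol list held 2 genes that rose and 4 that fell at 24 h, with INPP4A, a lipid phosphatase, at 1.23 ± 0.35 and PLCB4, a phospholipase C, at -1.11 ± 0.34, and 4 that rose and 3 that fell at 48 h. The ankyrin list held 0 that rose and 1 that fell at either time, EHD2 at 24 h by -1.51 ± 0.23 and EHD1 at 48 h by -0.75 ± 0.25. The CAP-Gly list held 2 that rose at 24 h, CLIP1 by 1.07 ± 0.37 and CEP350 by 0.62 ± 0.20, and 1 at 48 h, SLAIN1 by 1.08 ± 0.36. At the low dose limma called 6.8% of all probe sets at 24 h and 4.62% at 48 h. At 24 h of this dose 2 inositol genes rose, INPP4A by 1.13 ± 0.35 and ITPK1 by 0.96 ± 0.28 (the 1 other ITPK1 probe set had the opposite sign). IL22RA1 rose by 1.34 ± 0.38 and SLAIN1 by 1.17 ± 0.36. At 48 h of this dose 1 listed gene, IL10RB, rose by 0.77 ± 0.20. With Ra at 12 h, Fk or CsA, 0 genes of any list were called by limma. Of all probe sets, limma called 0.0668% for Ra at 12 h and 0.83% for CsA at 48 h. For CsA at 12 h and for Fk at either time it called 0%, so the count is no result about the lists.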

How the data were processed

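Total RNA of 48 HK-2 samples was measured on oligonucleotide arrays, and the deposited table holds log2 expression values that the authors computed by GCRMA, as the submitters' processing notes record, its version not given in the sources used here. GCRMA corrects background by probe sequence and normalizes between arrays. Its settings are unknown here, so the low filter of 4 was set without a known floor. No further normalization was applied. Genes were named from the platform annotation, and the 1801 probe sets with several symbols were left out.

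A linear model with 1 mean for each of 16 groups was fitted to all 20960 probe sets with limma 3.58.1 in R 4.3.3, two-sided, with Benjamini-Hochberg adjustment within each of 23 comparisons. It was tested on simulated data. The replicates are labelled biological, and nothing says that they came from separate thaws. Same-numbered arrays were checked for shared deviations from their group means. All 18 pairs of the CsA set and all 45 of the Nnm set had r above 0.1 (means 0.51 and 0.45), against 17 of 45 in the Fk and Ra set. The numbers were thus taken to pair arrays in the CsA and Nnm sets. The main fit, which gave the calls and the shares of all probe sets, did not use this pairing. A fit with the replicate number as a block did, and the member calls it changed are given.

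The members and the gene lists were chosen with earlier results of these data known. Named list genes were up to 4 called genes with the largest change for Ra at 48 h, and up to 2 in each other treatment or control comparison. Like genes were the 3 with the highest r. Alternatives were median centring, quantile normalization, 2 other filters, 1 probe set per gene, 14 groups for r (added after the values were seen), a replicate block, the same set only, each array left out, Spearman's rho, uncentred means and 1 strand for motifs. Tables and figures used Python 3.11.15 and matplotlib 3.10.9.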

Additional observations from a re-analysis of the deposited data

How the results depend on the processing

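No difference of a called member reversed under any alternative run. Of 1692 recomputed member differences, 22 passed the threshold newly, 20 no longer passed it and 1650 were left as they were. The 1650 include all differences of the comparisons given with no test, which have no call to change. With the replicate block, 1 member probe set was called for CsA at 48 h (IL20RB), against 0 without it, and 2, against 0, for the high dose of Nnm at 48 h (ANK2 202921_s_at and CLIP4). With the block, ANK2 202921_s_at also passed in the Fk and Ra controls between 12 h and 48 h (limma adjusted p = 0.0207). In that set 17 of 45 same-numbered pairs had r above 0.1, so the numbers were not taken to pair arrays. The block changed no other call of a member. Fitted on arrays of the same set only, 1 was called for CsA at 48 h and 0 for the high dose of Nnm at 24 h, where the adjusted p of CLIP4 was 0.0629. With no filter on low values, IL20RB in the CsA controls (0.0968) and ITPKA in the Fk and Ra controls (0.0629) were not called. Without replicate 2 of all Nnm groups, added after the values were seen, counts were 2 at the high dose and 24 h and 3 at 48 h. For high against low dose they were 1 at 24 h and 2 at 48 h. The shares of all probe sets called under these alternatives, or with an array left out, are not given here. The counts of called members under them are therefore no result about the members.

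With each array left out in turn, counts of called members ran from 0 to 1 for CsA at 48 h, from 0 to 2 for the high dose of Nnm at 24 h, from 0 to 3 at 48 h, from 0 to 1 and from 0 to 3 for high against low dose at 24 h and 48 h, from 2 to 3 in the CsA controls between 12 h and 48 h, and from 1 to 5 in the Fk and Ra controls. The other 13 comparisons stayed at 0. Counts of 1 strand only were 2 of 15 promoters for CCAAT and 1 of 15 for GGGCGG. With 3 arrays in a group, and with IL20RB and CLIP4 under a log2 value of 4 in 10 of 16 group means, the size of their differences is uncertain.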
